A study of Mus musculus with 20 samples.

Results

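The Trim5, Trim12, Trim30 and Trim34 cluster of chromosome 7 was examined in medullary thymic epithelial cells, with Trim21 and Trim25 as comparators. All probe sets annotated to exactly 1 of the 8 symbols Trim5, Trim12a, Trim12c, Trim34a, Trim30a, Trim30d, Trim21 and Trim25 were taken, which gave 16 probe sets of 8 genes among 45037 probe sets and 18193 genes. The 6 cluster genes have 11 of these probe sets and both comparators together have 5. Another 4 probe sets that name a member or a close paralog together with another gene were left out. The cluster genes were chosen by how their measured levels vary between strains in these arrays, so their strain differences below are a description without a test.

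TRIM proteins carry a RING domain that acts as a ubiquitin ligase, a B-box and a coiled coil, and many members end in a domain that recognises a target. Many of their genes are induced by interferon and act in innate antiviral defence, either by binding viral capsids or by tuning the signalling that starts from RNA, DNA and Toll-like receptor sensors. In the thymus, medullary epithelial cells are known for expressing interferon-responsive genes without infection, and for presenting genes of other organs under the control of the transcriptional regulator Aire.

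The cells were sorted from individual thymi of male mice aged 3 to 4.5 weeks as CD45-, G8.8+, Ly51 intermediate and MHC class II high. Mice with Aire (WT) and mice without it (KO) were compared on 3 inbred backgrounds: B6 (3 WT, 3 KO), BALB (4 WT, 4 KO) and NOD (3 WT, 3 KO), with 1 Affymetrix array per mouse and 20 in all. The labels do not describe the knockout allele or the substrains, and no group received a treatment. RNA was amplified in repeated rounds before hybridisation, and the deposited values are RMA intensities, given below as log2, so a difference of 1 is a doubling. Levels are compared between mice for the same probe set and not between probe sets. In bulk RNA, fewer cells that express a gene and less RNA per cell cannot be told apart.

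Median intensity per array ranged from 86.3 to 90.9. The 14 measured medullary epithelial markers lay on average between the 82.8th (Cd80) and 99.9th percentile (H2-Aa, a class II gene) of their arrays. The Aire probe set did not mark the knockouts: it averaged 10.73, 10.25 and 11.19 in B6, BALB and NOD WT mice and 11.53, 10.95 and 11.91 in the KO mice. Without knowledge of which part of Aire was deleted, this probe set does not check the labels. Ptprc (CD45), absence of which was a sorting criterion, lay at the 89.0th percentile of the arrays, and the mean of 5 haematopoietic markers ranged from 8.88 to 10.27 over the arrays. These 5 markers averaged between the 48.4th (Lcp2) and 99.3rd percentile (Laptm5). The 12 dendritic cell and macrophage markers averaged between the 13.7th (Itgam) and 98.7th (Lyz2). The B6 WT 2, B6 KO 2 and B6 KO 3 arrays stood apart, with Gapdh 3' minus 5' signals of 1.90, 1.68 and 1.84 against 2.15 to 3.76 on the other 17. B6 results are therefore given with and without them where a call changes.

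Promoter windows are shown because several are near-copies of each other and hold an interferon-response core. They run from 250 bases before to 50 bases after the RefSeq gene start (build GRCm38.p6), and promoters of all 8 genes were in the table, with a second start for Trim30a. The core, GAAA followed by any 2 bases and GAAA, was searched on both strands, and the matches are printed 5' to 3' on the strand of the gene with 10 bases on each side. Capitals mark the match, which reads as its reverse complement in the cluster genes and forward in Trim21.
Trim5, chr7:104288136-104288165, minus strand: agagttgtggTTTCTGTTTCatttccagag
Trim12a, chr7:104315466-104315495, minus strand: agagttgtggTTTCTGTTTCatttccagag
Trim12c, chr7:104353359-104353388, minus strand: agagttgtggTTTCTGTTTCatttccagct
Trim34a, chr7:104244457-104244486, plus strand: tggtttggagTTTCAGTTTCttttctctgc
Trim30a, chr7:104465210-104465239, minus strand: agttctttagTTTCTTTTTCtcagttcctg
Trim30d, chr7:104507871-104507900, minus strand: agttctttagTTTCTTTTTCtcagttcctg
Trim21, chr7:102565450-102565479, minus strand: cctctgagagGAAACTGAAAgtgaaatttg

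The core was found in 7 of the 8 genes, namely all 6 cluster genes and Trim21, against 3.99% of 27025 genes in the promoter table (3.44% of 32851 promoters). Trim25 held no match in its window. Trim21 held a second match that overlaps the first, and the second Trim30a start held 1 as well. A second interferon element, TTCNNNGAA, the core of sites bound by STAT dimers, was in none of the 8 genes and in 9.55% of all genes. The Trim5 and Trim12a windows were identical over all 241 bases that could be laid side by side without gaps, and Trim30a and Trim30d were identical at 93.6% of 295 bases. These matches describe letters in the reference assembly and are not shown to be bound sites.

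The pattern over the strains was not the same for all cluster genes. Trim12c, a TRIM5-like ligase reported to work with TRAF6 in interferon and NF-kB signalling, was high in B6 and BALB and near the bottom of the scale in NOD. For 1443858_at the B6 WT mice read 8.93, 9.65 and 9.50, the BALB WT mice 9.30, 9.32, 9.68 and 9.81, and the NOD WT mice 4.17, 4.25 and 4.24. The NOD minus B6 difference was -5.14 on the log2 scale, a 35.2-fold difference of geometric means, and BALB was 39.6-fold above NOD. No NOD mouse came near any mouse of the other strains, and the NOD level sat at the 9.7th percentile of its arrays against the 89.0th in B6 WT. The KO mice kept this order, with NOD KO 17.6-fold below B6 KO. The other Trim12c probe set, 1445271_at, was dim in all 20 mice (3.47 to 4.18).

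Trim12a, another murine TRIM5 homolog, was seen above the lowest values only in B6. The B6 WT mice read 6.41, 7.75 and 7.42 for 1437432_a_at. The 4 BALB WT mice lay between 3.62 and 3.75 and the 3 NOD WT mice between 3.47 and 3.53. The lowest 5% of all values on the arrays were under 3.77, so Trim12a was at the floor of the measurement in both strains and the 11.4-fold (BALB) and 12.9-fold (NOD) differences from B6 are differences from that floor. The B6 KO mice read 5.55, 6.84 and 6.67, all above every BALB and NOD mouse. The second Trim12a probe set, 1420648_at, lay between 4.09 and 4.64 in all mice and did not show the pattern.

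Trim5, the mouse relative of the primate restriction factor that binds incoming retroviral capsids, was ordered NOD, then B6, then BALB, without overlap between neighbours in the WT mice. The NOD WT mice read 8.29, 8.59 and 8.77, the B6 WT mice 6.99, 7.31 and 7.66, and the BALB WT mice 5.19, 5.38, 5.07 and 4.96. NOD was 2.34-fold above B6 and 10.5-fold above BALB. In the KO mice the order was the same, with 2.10-fold and 5.49-fold differences. Trim12c and Trim5 thus ran in opposite directions between BALB and NOD, although their genes neighbour each other with Trim12a between them in the RefSeq order.

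Trim34a, an interferon-inducible member, was lowest in BALB. For 1424857_a_at the B6 WT mice read 9.50, 10.44 and 9.46, the NOD WT mice 8.84, 9.32 and 9.04, and the BALB WT mice 6.79, 5.0, 5.91 and 6.95. BALB WT was 12.4-fold below B6 and 7.49-fold below NOD, and every BALB mouse of either genotype (5.0 to 7.14) was below every mouse of the other strains. The spread among BALB WT mice (SD 0.90, n = 4) was the widest of any member group. The dim second probe set, 1426093_at, ran the other way, with 4.37 to 5.31 in BALB WT and 3.76 to 3.94 in the B6 and NOD WT mice. The correlation of both Trim34a probe sets over the 20 arrays was -0.81.

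Trim30d, a close copy of Trim30a, followed the Trim34a pattern. For 1435665_at the B6 WT mice read 7.42, 8.59 and 7.47, the NOD WT mice 6.73, 7.97 and 7.82, and the BALB WT mice 5.93, 5.32, 4.88 and 4.85. BALB WT was 5.98-fold below B6 and 4.80-fold below NOD, and the BALB mice were below all others in both genotypes. The second probe set, 1438716_at, was ordered likewise for NOD over BALB (means of 6.63 and 5.65) and correlated with the first at 0.79, but its B6 and BALB WT mice overlapped.

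Trim30a, which is known for restraining Toll-like receptor signalling through the TAK1 partners TAB2 and TAB3, gave readings that depended on the probe set. For 1417961_a_at the B6 WT mice read 10.73, 9.44 and 10.49, the BALB WT mice 8.72, 8.80, 8.98 and 9.30, and the NOD WT mice 8.94, 9.34 and 9.34. B6 was 2.41-fold above BALB and 2.02-fold above NOD. For 1451860_a_at the strains overlapped, with B6 WT means 0.35 below BALB and 0.40 below NOD, and the correlation of both probe sets over the 20 arrays was 0.08. The B6 lead on the first probe set was smallest in B6 WT 2, one of the 3 arrays that stood apart. Without those arrays B6 WT lay 1.66 above BALB and 1.40 above NOD on the log2 scale. Probe sequences were not used here, and which paralogs a probe set reads, or whether its target differs between strains, was not tested.

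**Figure D1:**
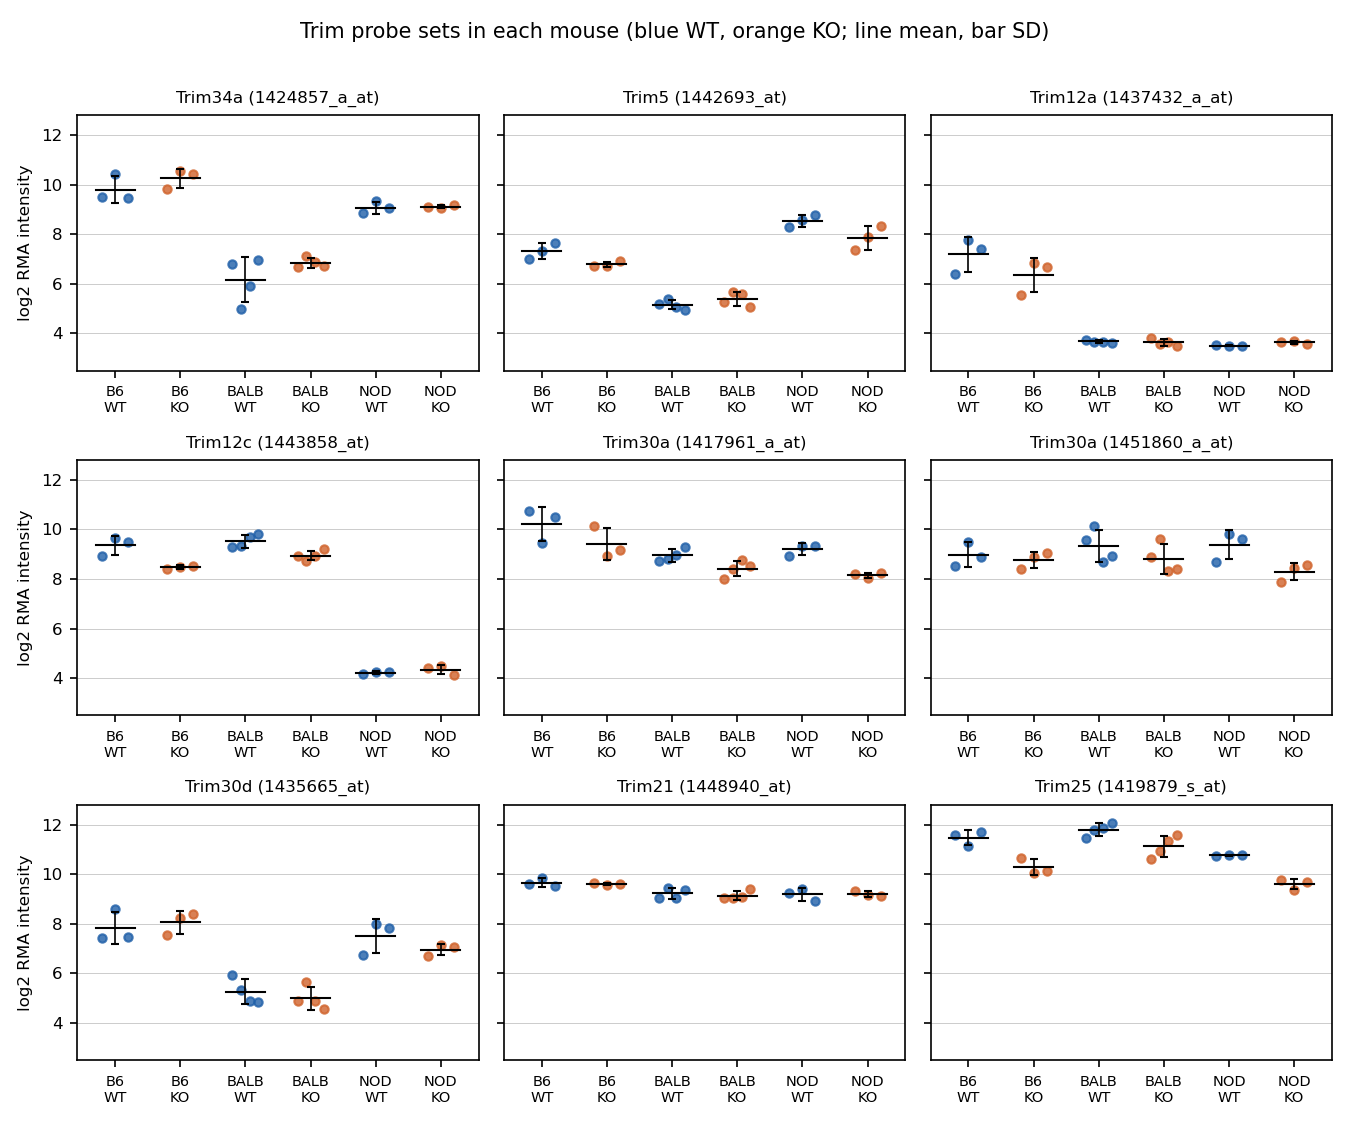
Log2 RMA intensity (vertical axis) of 9 Trim probe sets in each of the 20 mice by strain and genotype (horizontal axis), with 1 point per mouse, a line at the group mean and a bar of 1 SD. Trim12c is near 4.2 in NOD, Trim12a is near 3.6 in BALB and NOD, and Trim34a, Trim5 and Trim30d are lowest in BALB, while Trim25 lies lower in the KO than in the WT group of each strain.

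Over the 11 cluster probe sets, 4 differed at least 4-fold between BALB and B6 WT mice, 2 between NOD and B6 and 4 between NOD and BALB. Over all probe sets these shares were 0.355%, 0.493% and 0.273%. WT mice did not overlap between BALB and B6 in 8 of the 16 member probe sets (14.3% of all probe sets), between NOD and B6 in 11 (24.4%) and between NOD and BALB in 12 (16.5%). In KO mice the counts were 10 (22.2%), 11 (27.9%) and 11 (22.8%). Since strain variation chose the cluster genes, nothing is read from these shares. For the comparators the widest WT strain difference was -1.03, NOD minus BALB, for Trim25 1419879_s_at. The same difference was -0.89 for Trim25 1425974_a_at, while 1426415_a_at went the other way (0.65). Over the 20 arrays 1426415_a_at correlated with the other Trim25 probe sets at 0.08 and 0.13.

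The genes beside the cluster were examined as well. The 10 measured genes on each side in the RefSeq order, which had no part in the choice of members, were tested in the same fit (limma over all 20 arrays, Benjamini-Hochberg adjustment over all 45037 probe sets, threshold 0.05). Of these 20 neighbours 1 passed between BALB and B6 WT mice, 2 between NOD and B6 and 0 between NOD and BALB (5 at an unadjusted p under 0.05), against 7.04%, 8.7% and 8.28% of all genes. None of the 20 differed 4-fold in these comparisons, where 0.355%, 0.493% and 0.273% of all probe sets did. The median absolute difference of the neighbours was at most 0.22. Since strain variation chose the cluster genes and not the neighbours, nothing is read from the contrast between them. Fam160a2 was lower in BALB and NOD than in B6 (-0.43, adjusted p = 0.0454, and -0.79, adjusted p = 0.000881). Trim6, the next Trim gene beside Trim34a, was higher in NOD than in B6 (0.71, adjusted p = 0.0436). The Trim6 call was lost without any 1 of B6 WT 2 and 3, the 3 NOD WT mice or 6 mice of other groups (adjusted p up to 0.182). The Fam160a2 call in BALB was lost without any 1 of the 3 B6 WT mice, BALB WT 1, 2 and 4 or 8 mice of other groups (adjusted p up to 0.162). Over all 20 arrays, WT and KO together, the sphingomyelinase gene Smpd1 and Fam160a2 averaged the 83.8th and 67.3rd percentile. The other neighbours, many of them olfactory receptor genes, averaged between the 4.78th and 59.8th. For the embryonic globin gene Hbb-y (48.3rd) this average hides higher WT levels, as its averaged KO minus WT difference was -6.52.

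**Figure D2:**
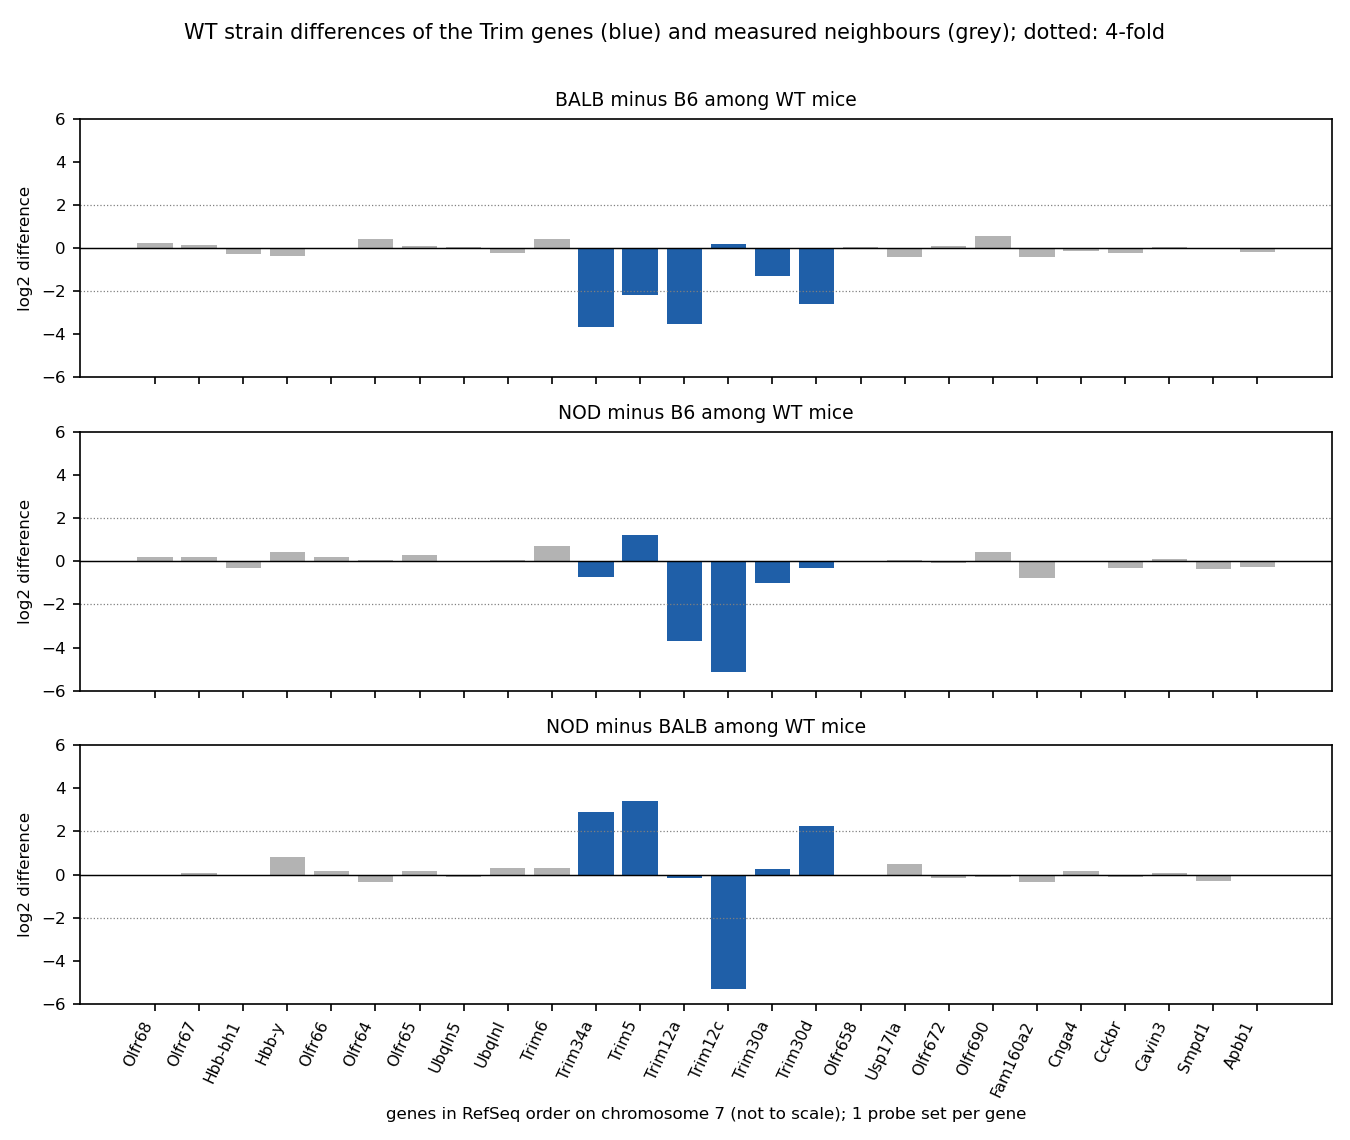
WT strain differences in log2 units (vertical axis) for 1 probe set per gene, placed in RefSeq order along chromosome 7 (horizontal axis, not to scale), with the 6 Trim genes in blue, 20 measured neighbours in grey and dotted lines at 4-fold. The Trim genes reach -3.64 between BALB and B6, -5.14 between NOD and B6, and both -5.31 and 3.40 between NOD and BALB, while no neighbour reaches 4-fold. The Trim genes were chosen by strain variation and the neighbours were not.

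The effect of Aire loss was measured as KO minus WT in each strain and as the average of the 3 differences. The averaged effect does not use the differences between strains and was tested in the fit described above. KO minus WT values of single strains share their WT arrays with the strain differences that chose the cluster genes. For those genes the p-values and calls of single strains are a description and no separate support. The limma p-values of the averaged effect set it against the spread between mice within groups, and the number of arrays limits its precision. That fit does not treat same-numbered mice as pairs. Pairing in BALB and NOD only was added after the data were seen, so calls gained with it are a description. Among the 16 member probe sets 5 were lower in KO mice and 0 higher (31.2%; 0 higher also at an unadjusted p under 0.05 by limma), against 20.6% of all probe sets called, 10.1% lower and 10.5% higher. By gene, 3 of 8 had a lower call, each on at least its brightest probe set: Trim25, Trim30a and Trim12c. With 1 probe set per gene, 16.6% of all genes were lower. The median over the 16 probe sets was -0.22, and over all probe sets 0.06.

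Trim25, the ligase that ubiquitinates the RNA sensor RIG-I and so starts its antiviral signal, fell in KO mice by all 3 of its probe sets. For 1419879_s_at the B6 WT mice read 11.60, 11.13 and 11.68 and the KO mice 10.66, 10.06 and 10.12. The BALB WT mice read 11.46, 11.77, 11.88 and 12.08 and the KO mice 10.60, 10.95, 11.35 and 11.57. The NOD WT mice read 10.75, 10.77 and 10.78 and the KO mice 9.78, 9.37 and 9.67. Every KO mouse was below every WT mouse in B6 and NOD, and BALB KO 4 alone overlapped its WT group, so that 9 of 10 KO mice were below all WT mice of their strain. The averaged difference was -1.01 (SE 0.13), a 2.01-fold reduction (adjusted p = 1.06e-05, limma). For 1425974_a_at it was -0.86 (SE 0.12, adjusted p = 4.07e-05), with 8 of 10 KO mice below all WT mice of their strain, and for 1426415_a_at -0.42 (SE 0.09, adjusted p = 0.00212), with 9 of 10.

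Within strains, the first Trim25 probe set fell by 1.19 in B6 (adjusted p = 0.002), by 0.68 in BALB (0.0449) and by 1.16 in NOD (0.00434). The second fell by 0.80 in B6 (0.0283) and by 1.17 in NOD (0.00284), and in BALB it read -0.62 (adjusted p = 0.0581, or 0.00428 with same-numbered mice of BALB and NOD as pairs). By the last probe set Trim25 fell by 0.60 in B6 (0.0231) and read -0.17 in BALB (0.579) and -0.49 in NOD (0.112). All 3 calls in B6 were lost without the 3 arrays that stood apart, which left 2 WT and 1 KO mouse there, with differences of -0.98, -0.94 and -0.59 (adjusted p = 0.138, 0.231 and 0.231). The BALB call was also lost without any 1 of BALB WT 2, 3 and 4 and BALB KO 1 and 2, at most in BALB KO 1 (-0.51, adjusted p = 0.164), and without any 1 of 7 mice of the other strains (adjusted p = 0.0514 to 0.0589). The averaged calls of all 3 probe sets held in every one of the 31 settings run, without those 3 arrays too (-0.94, -0.91 and -0.42). The B6 call of 1425974_a_at was lost without any 1 of B6 WT 2, WT 3, KO 1 and KO 3 (adjusted p = 0.056, 0.106, 0.0746 and 0.0807). That of 1426415_a_at was lost without any 1 of B6 WT 1, WT 3, KO 2 and KO 3 (0.0538, 0.156, 0.0892 and 0.107).

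Trim30a fell on 1417961_a_at. The B6 KO mice read 10.15, 8.93 and 9.15, the BALB KO mice 8.01, 8.42, 8.75 and 8.51 and the NOD KO mice 8.20, 8.03 and 8.22, to be set against the WT values above. NOD genotypes did not overlap, while in B6 and BALB they did, and 8 of 10 KO mice were below all WT mice of their strain. The averaged difference was -0.80 (SE 0.17, adjusted p = 0.00254, limma), with -0.81 in B6, -0.53 in BALB and -1.06 in NOD, none of which passed alone (adjusted p = 0.129, 0.306 and 0.0679). With the pairs of BALB and NOD the adjusted p was 0.00601 averaged and 0.0848 in NOD, and the averaged call held in every one of the 31 settings run (differences of -0.94 to -0.68).

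The second Trim30a probe set, 1451860_a_at, read lower in KO mice without passing. The B6 WT mice read 8.52, 9.51 and 8.90 and the KO mice 8.40, 8.88 and 9.04, which overlapped. The NOD WT mice read 8.70, 9.80 and 9.62 and the KO mice 7.89, 8.45 and 8.56, all below. The BALB WT mice read 9.56, 10.12, 8.66 and 8.94 and the KO mice 8.90, 9.63, 8.32 and 8.40. The averaged difference was -0.59 (SE 0.22, adjusted p = 0.0644), with -0.20 in B6 (0.815), -0.50 in BALB (0.478) and -1.08 in NOD (0.185). With same-numbered mice of BALB and NOD as pairs, a setting added after the data were seen, the adjusted p was 0.00281 averaged and 0.00866 in NOD. In BALB, mice 1 and 2 of both genotypes were high and mice 3 and 4 low, and in NOD mouse 1 was low. The mean of the 5 haematopoietic markers moved with this: 9.71, 9.86, 9.06 and 9.23 in BALB WT, 9.60, 9.85, 8.88 and 9.30 in BALB KO, 9.07, 9.87 and 10.27 in NOD WT and 9.11, 9.70 and 9.98 in NOD KO. Of these 5 markers, Lcp2 was lower in KO mice (-0.63, adjusted p = 0.0277, lost without any 1 of B6 WT 2, B6 KO 1, NOD WT 2, NOD WT 3 and NOD KO 1) and Cd52 higher (0.51, adjusted p = 0.00339). Their part in the Trim30a reading was not tested. Within each of 5 sets of mice that share a strain and a run of sample codes, both Trim30a probe sets read lower in the KO mice. A set held 2 WT and 2 KO mice, or 1 of each in a NOD set. These mice are among those averaged above, so the sets are no separate support.

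Trim12c fell in KO mice in the averaged comparison by 1443858_at (-0.45, SE 0.10, adjusted p = 0.00233), which includes the near-floor NOD mice. The B6 KO mice read 8.39, 8.5 and 8.54 and the BALB KO mice 8.91, 8.74, 8.91 and 9.21, all 7 below every WT mouse of their strain. The NOD KO mice read 4.39, 4.48 and 4.14, around the WT values of 4.17 to 4.25. The difference was -0.89 in B6 (SE 0.17, adjusted p = 0.00252), -0.59 in BALB (SE 0.15, adjusted p = 0.0228) and 0.12 in NOD (adjusted p = 0.885). These values of single strains share their WT arrays with the strain differences that chose the gene and are no separate support for the fall. For that reason, whether the Aire effect differed between strains was not tested. Without the 3 arrays that stood apart the B6 difference was -0.83 (adjusted p = 0.126), and the BALB call was lost without any 1 of BALB WT 3 and 4 (adjusted p = 0.0737 and 0.0667) and BALB KO 1, 2 and 3 (0.0603, 0.0714 and 0.0595). The averaged call held in all 31 settings run.

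Trim5 did not pass in the averaged comparison (-0.33, SE 0.12, 95% confidence interval -0.58 to -0.07, adjusted p = 0.0646). The B6 KO mice read 6.73, 6.71 and 6.91, each below every B6 WT mouse, and the NOD KO mice 7.36, 7.87 and 8.33. In BALB, where the gene was dimmest, the KO mice read 5.27, 5.66, 5.58 and 5.07, around the WT values. The differences were -0.54 in B6 (adjusted p = 0.160), 0.25 in BALB (0.544) and -0.69 in NOD (0.0993). With same-numbered mice of BALB and NOD as pairs, a setting added after the data were seen, the averaged adjusted p was 0.0129. That of NOD was 0.0157 and that of B6 0.0382.

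Trim34a, Trim12a and Trim30d had no averaged call. Trim34a 1424857_a_at read 0.40 higher in KO mice (confidence interval -0.04 to 0.84, adjusted p = 0.182), the only cluster gene whose brighter probe set leaned upward. Trim12a 1437432_a_at read -0.84 in B6 (adjusted p = 0.0815), and -1.36 (0.0101) without the 3 arrays that stood apart. On those 3 arrays Trim34a, Trim12a and the brighter Trim30d probe set were high for their group and Trim30a 1417961_a_at was low in B6 WT 2 and B6 KO 2 and 3. Trim30d 1438716_at, highest in NOD WT, read lower in NOD KO mice, from 6.59, 6.76 and 6.54 in WT to 6.05, 6.06 and 5.88 in KO mice (-0.63, adjusted p = 0.0136). These WT arrays also entered the choice of the gene, so the NOD difference is no separate support for a fall. The call was lost on leaving out NOD WT 2 (-0.57, adjusted p = 0.0867) or NOD KO 3 (-0.58, adjusted p = 0.0654). The brighter Trim30d probe set read -0.55 in NOD (0.630).

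Trim21, the cytosolic antibody receptor that marks antibody-coated pathogens for degradation, had no call. For 1448940_at the 20 mice lay between 8.91 and 9.85, and the averaged difference was -0.05 (confidence interval -0.22 to 0.12, adjusted p = 0.702). For 1418077_at it was 0.13 (-0.05 to 0.31, adjusted p = 0.283). Both intervals exclude a reduction of the size measured for Trim25 on its brightest probe set.

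Per strain, 4 of 16 member probe sets were lower in B6 KO mice (5.54% of all probe sets), 2 in BALB (4.26%) and 3 in NOD (2.81%). None of the 16 was called higher in a strain (3.08%, 2.57% and 1.42% of all probe sets), and at an unadjusted p under 0.05 by limma 1 was, Trim34a 1424857_a_at in BALB. KO mice were all below WT mice in 5 of 16 in B6 (11% of all probe sets), in 1 in BALB (5.6%), in 6 in NOD (10%) and in 0 in all 3 strains (3.17%). The reverse, all KO above all WT mice, held for 1 of 16 in B6 (14.5%), 0 in BALB (6.08%), 3 in NOD (14.4%) and 0 in all 3 strains (1.37%). These were the dim Trim34a 1426093_at in B6 and NOD and both Trim12a probe sets in NOD. These counts rest on probe sets of the same genes: Trim25 gives 3 of the 4 calls in B6 and 2 of the 3 in NOD.

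**Figure D3:**
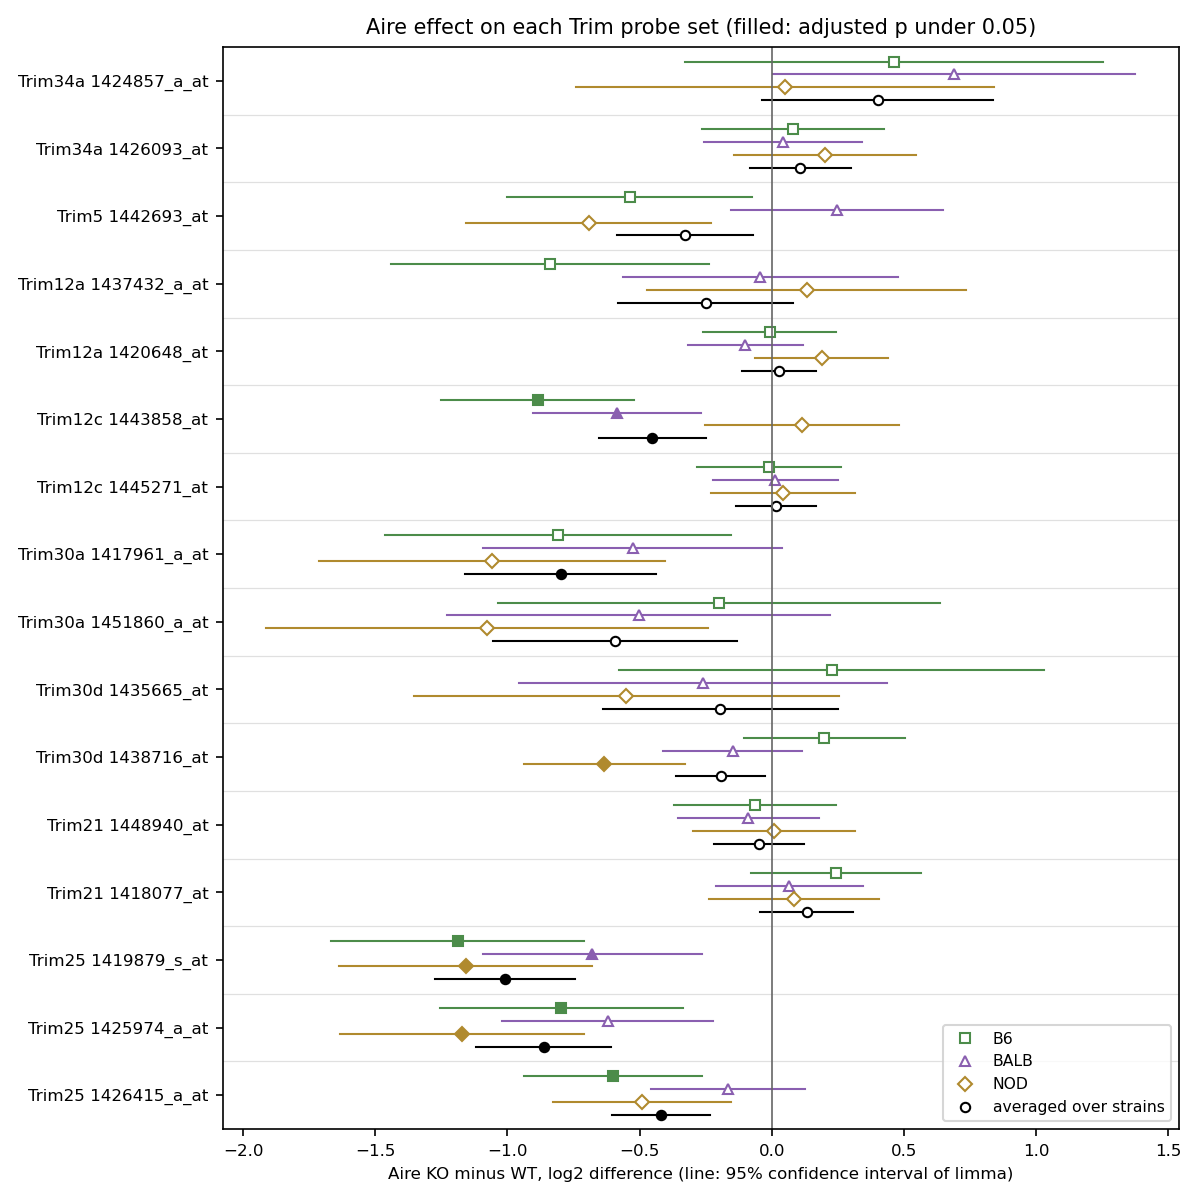
KO minus WT log2 differences (horizontal axis) for the 16 Trim probe sets (vertical axis) in B6, BALB, NOD and averaged over the strains, with 95% confidence intervals from limma and filled symbols at an adjusted p under 0.05. The averaged estimates of Trim25 (-1.01, -0.86 and -0.42), Trim30a 1417961_a_at (-0.80) and Trim12c 1443858_at (-0.45) are filled, and no filled symbol lies above 0.

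The rest of the Trim family, from a list chosen with earlier results of these data known, was described in the same comparison. With 1 probe set per gene, 11 of 52 measured genes were lower and 2 higher in KO mice (25%, against 26.3% of all genes called, 16.6% lower and 9.7% higher). The median was -0.02. The largest falls were those of Trim40 (-2.03, SE 0.08, adjusted p = 8.09e-12), from 9.0, 8.17 and 8.35 in B6, BALB and NOD WT mice to 6.67, 6.59 and 6.17 in KO mice, and of Trim2, a ligase of neurons (-1.36, SE 0.28, adjusted p = 0.00162). Trim31, a ligase of the gut epithelium that acts on the antiviral adaptor MAVS, fell by 1.14 (adjusted p = 1.83e-06) and Trim10, which is needed for red cell maturation, by 0.87 (3.32e-06). The members that rose were Trim17 (0.20) and Trim69 (0.25), named after their values were seen. The count of 13 calls was 8 without the 3 B6 arrays and 20 with array weights.

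Among interferon-stimulated genes, a list also chosen with earlier results of these data known, the calls were all lower and are a description. Of 37 measured genes outside the 8 Trim genes, 25 were lower and 0 higher by limma (67.6%, against 26.3% of all genes called and 16.6% lower). At an unadjusted p under 0.05 by limma 0 were higher. The median was -0.69, and between 23 and 29 passed over the settings run. Rsad2 (viperin) and Ifit3, antiviral effectors, each fell by 2.13 (SE 0.15 and 0.22, adjusted p = 1.20e-08 and 1.17e-06), Ifit2 by 1.90 (4.20e-07) and Cmpk2, a neighbour of Rsad2, by 1.68 (7.67e-07). Within strains 14 were lower in B6, 15 in BALB and 14 in NOD, against 9.27%, 7.48% and 4.7% of all genes. Markers of epithelium and of other cell types passed in the same comparison, and their part in these falls and in those of the Trim genes was not tested. Of 14 medullary epithelial markers 2 were lower and 4 higher (42.9%, against 26.3% of all genes called). The largest were Cd80 (0.85), Aire (0.74), Krt5 (-0.69) and Relb (0.63). Of 8 cortical epithelial markers Ctsl (-0.78) was lower and Tbata (0.61) and Ly75 (0.52) were higher (37.5%). All 7 fibroblast markers passed, 4 lower (Col3a1 -1.12) and 3 higher (Dcn 1.53), while the range of their mean was 7.25 to 7.51 over the WT and 7.12 to 7.58 over the KO mice. Of 6 endothelial markers Cd34 was lower (-2.11) and Pecam1 higher (0.21), and of 9 thymocyte markers Cd3g (-0.92) and Dntt (-0.67) were lower. Of 12 dendritic cell and macrophage markers Adgre1 was lower (-1.38) and Fcer1g higher (0.53), with a range of their mean of 7.71 to 9.36 over the WT and 7.53 to 8.92 over the KO mice. Of 6 B cell markers Cr2 (1.44) and Blk (0.25) were higher. The calls of Dntt, Fcer1g, Pecam1 and Blk were lost without the 3 B6 arrays, that of Blk also without any 1 of B6 WT 2, NOD WT 1 and NOD KO 2, and that of Fcer1g without any 1 of B6 WT 1, B6 WT 2, B6 KO 1, BALB WT 3, BALB KO 1, NOD WT 1, NOD WT 2 and NOD KO 3.

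The signalling genes around the Trim proteins, from lists also chosen with earlier results of these data known, were mixed. Over all genes 26.3% were called, 16.6% lower and 9.7% higher. Among 21 interferon receptors and signalling genes 5 were lower and 5 higher (47.6%), with Ifng (-1.11), the inducer Irf7 (-0.80), Irf8 (0.92) and Irf2 (0.53) as the largest, and 3 of the 5 lower ones (Irf7, Stat2 and Irf9) are also on the interferon-stimulated list. The Irf2 call was lost without the 3 B6 arrays (0.44, adjusted p = 0.102). The count of 10 calls was 6 without those arrays and 16 with the replicate block in all strains. Among 16 sensing genes, of which Ifih1, Ddx58 and Dhx58 are also on the interferon-stimulated list, 4 were lower and 2 higher (37.5%), including the RNA sensors Ifih1 (MDA5, -0.78, adjusted p = 1.46e-06) and Ddx58 (RIG-I, the substrate of Trim25, -0.69, adjusted p = 1.17e-06), the DNA sensing adaptor Sting1 (-0.40) and Traf6 (0.67, adjusted p = 3.34e-05). Of 13 ubiquitin and TAK1 partners Traf6, the same gene as on the sensing list, alone passed (7.69%), and the count was 2 with the replicate block or the runs of sample codes as a block and 4 with array weights. Of 9 retroviral restriction factors Bst2 (tetherin, also interferon-stimulated) fell by 1.06 (adjusted p = 0.00203) and Trim28, the silencer of endogenous retroviruses, read -0.22 (adjusted p = 0.0333), a call lost without any 1 of B6 WT 1, B6 WT 2, B6 KO 1, BALB WT 1, BALB WT 3, BALB KO 4, NOD WT 3, NOD KO 1 and NOD KO 2 (adjusted p = 0.0502 to 0.0754). These 2 calls were 22.2% of the list, and their count was 4 with the replicate block in all strains.

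**Figure D4:**
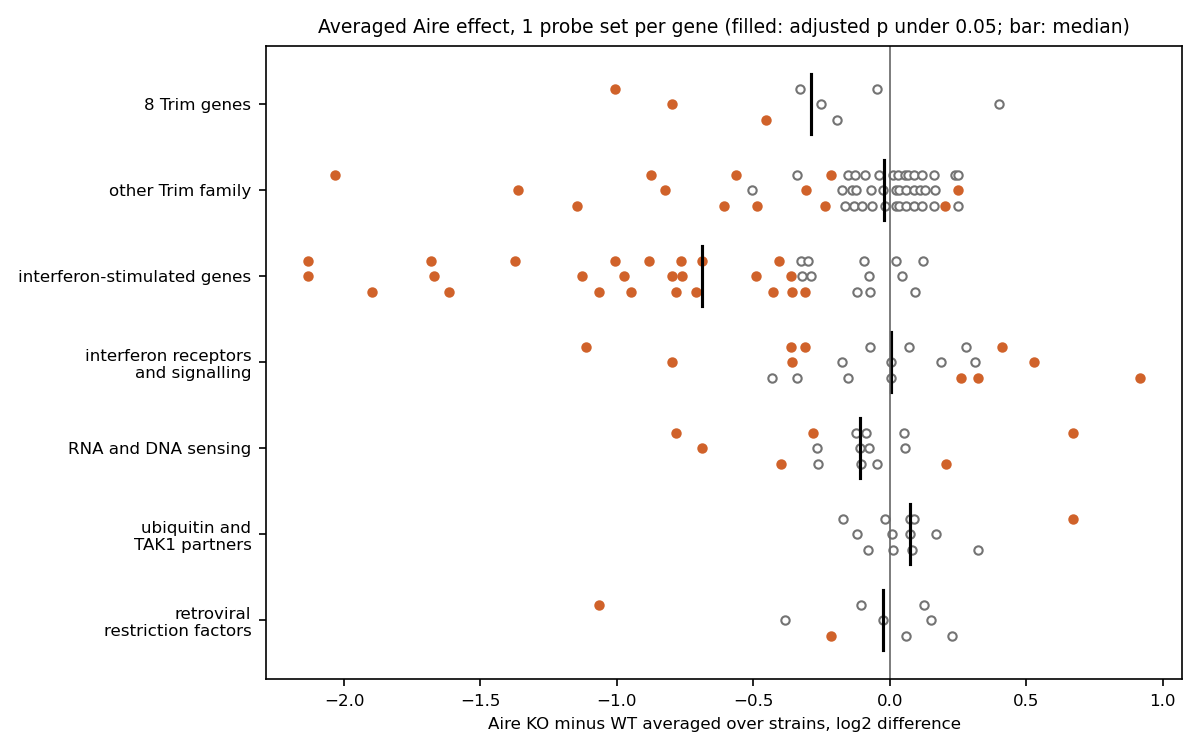
KO minus WT log2 differences averaged over strains (horizontal axis) with 1 point per gene for the 8 Trim genes and 6 gene lists (vertical axis), filled at an adjusted p under 0.05, and a bar at each median. The interferon-stimulated genes have their median at -0.69 and no filled point above 0, and the other Trim genes have theirs at -0.02.

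Strain differences among WT mice were tested for the genes outside the cluster. Of the 14 medullary epithelial markers 5 passed between BALB and B6, 3 between NOD and B6 and 5 between NOD and BALB. These shares were 35.7%, 21.4% and 35.7%, against 7.04%, 8.7% and 8.28% of all genes. Their part in the strain differences of the Trim genes was not tested. Among the 52 other Trim genes 5 passed between BALB and B6, 8 between NOD and B6 and 5 between NOD and BALB (9.62%, 15.4% and 9.62%), and 1 of them reached 4-fold. That was Mid1, a microtubule-associated ligase, at 2.16 higher in NOD than in BALB (adjusted p = 0.0125), with NOD WT mice at a mean of 10.18 (SD 1.03, n = 3) against 8.02 (SD 0.41, n = 4). The Mid1 call was lost on leaving out NOD WT 2 (1.73, adjusted p = 0.0902) or NOD WT 3 (2.02, 0.0601). Trim68 was lower in NOD than in BALB (-1.62, adjusted p = 5.87e-06) and Trim66 lower in NOD than in B6 (-1.16, adjusted p = 0.000396), calls that no single left-out mouse removed. The count between NOD and B6 was 3 on leaving out NOD WT 2 and 4 on leaving out B6 WT 2, and that between NOD and BALB was 1 on leaving out NOD WT 3 and 3 on leaving out BALB WT 2, BALB WT 4 or NOD WT 2.

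Of the 37 interferon-stimulated genes 6 passed between BALB and B6 (16.2%, against 7.04% of all genes), 1 between NOD and B6 (2.7%, against 8.7%) and 2 between NOD and BALB (5.41%, against 8.28%). Oasl2 was lower in BALB than in B6 (-1.16, adjusted p = 0.00439) and Rtp4 higher (1.12, 0.00319). Gbp2 was 1.82 higher in NOD than in BALB (0.00973), which was lost without NOD WT 2 (1.63, 0.0592) or NOD WT 3 (1.43, 0.0746). The count of 6 was 3 on leaving out B6 WT 2, B6 WT 3, BALB WT 3 or BALB WT 4, and those between NOD and either strain ran from 0 to 4 and from 0 to 2 on leaving out single mice. The restriction factor Apobec3 was lower in BALB than in B6 WT mice (-1.96, adjusted p = 0.000348), with means of 7.61 (SD 0.28, n = 4) and 9.57 (SD 0.76, n = 3). 

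The genes whose log2 values over the 20 arrays were most like each member were mostly from other chromosomes. Trim12c was nearest to D17H6S56E-5 (Pearson r = 0.98), Crym (0.97) and Pcdh17 (0.96), Trim12a to Zfp874a, Spata5l1 (both 0.97) and Ttc6 (0.96), and Trim5 to Pgm5 (0.96), 1500011B03Rik (0.94) and Gm10033 (0.93). Trim34a and Trim30d shared H2-Q2 and Fcgbp among their nearest genes (0.93 to 0.95), and Trim34a was itself among the 3 nearest of Trim30d (0.93). Trim25 was nearest to Ppargc1a (0.97), Asxl1 and Epgn (both 0.94), of which Ppargc1a and Epgn read lower in KO mice (-1.13 and -1.08 averaged). The points share arrays, strains and genotype groups, so the correlations are given as a description only.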

How the data were processed

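Expression in 20 sorted cell samples was measured on Affymetrix arrays, and 1 value per probe set was deposited. These values are intensities on a linear scale made by the authors with RMA, per the submitters' processing notes. The RMA version, and whether all 20 arrays were processed together, are not stated there. RMA pools the probes of a probe set into 1 value, so a probe set that reads several paralogs cannot tell them apart.

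Values were taken as log2, and 64 control probe sets were left out. A gene was named only where the platform annotation gives 1 symbol (34945 probe sets, with 932 naming several and 9160 unnamed). limma 3.58.1 in R 4.3.3 fitted 6 group means over all 20 arrays (14 residual degrees of freedom), with Benjamini-Hochberg adjustment over 45037 probe sets and a threshold of 0.05. The script was tested on simulated data. The Trim genes and gene lists were chosen with earlier results of these data known. Where 1 value per gene was needed, the probe set of highest mean over the 20 arrays was used. Up to 4 genes of a list were named by averaged KO minus WT difference and up to 4 by WT strain difference, among those past the threshold, with 3 most alike genes per Trim gene and 10 neighbours on each side.

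Same-numbered WT and KO mice deviated together from their group means in all 4 BALB pairs (correlations of 0.46 to 0.66) and all 3 NOD pairs (0.31 to 0.67), and in 2 of 3 B6 pairs (lowest -0.13). The numbers were taken to pair mice in BALB and NOD. The alternatives were a replicate block, quantile normalization, median centring, an offset of 16, a mean log2 of at least 6, array weights, another variance model, fits on 1 strain, runs of sample codes as a block and each mouse left out.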

Additional observations from a re-analysis of the deposited data

Results flagged for a closer look

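Trim21 1448940_at in BALB KO mouse 4 read 9.39 on the log2 scale, while the other 3 BALB KO mice lay between 9.04 and 9.06. The gap took 0.934 of the range of the group, above Dixon's 95% critical value for 4 samples. Of 32 groups examined this was the only one past its limit, and chance passes about 1 in 20.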

How the results depend on the processing

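The 5 averaged calls (3 Trim25 probe sets, Trim30a 1417961_a_at and Trim12c 1443858_at) kept their direction and passed in every one of 31 settings. Across all tests run again, 4250 kept direction and side of the threshold, 241 were lost and 85 gained. The following counts of calls moved by over 1.5 times, and the cause was not tested. With same-numbered mice as a replicate block in all strains the averaged comparison called 16664 probe sets rather than 9277 (9 Trim probe sets rather than 5), B6 9695 rather than 3880 (7 rather than 4), BALB 7787 rather than 3079 (5 rather than 2) and NOD 5112 rather than 1903 (7 rather than 3). With the replicate block in BALB and NOD only, which was added after the data were seen, BALB called 4647 and NOD 2974 (5 Trim probe sets). Array weights gave 16715 averaged (10 Trim), 12733 in B6 (9), 1 Trim probe set in BALB and 6795 in NOD (8). Runs of sample codes as a block gave 8 Trim probe sets averaged, 7 in B6, 4911 in BALB and 3090 in NOD (6). Arrays of 1 strain alone gave 2517 in B6 (2 Trim) and 0 Trim probe sets in BALB. With B6 KO 2 and 3 as 1 sample, B6 called 2524 (2) and BALB 1 Trim probe set. Without B6 WT 2, KO 2 and KO 3, which left 1 B6 KO mouse assumed to vary like the other groups, B6 called 1245 (1 Trim), BALB minus B6 1713 in WT and 791 in KO mice (2747 and 5483 with them), and NOD minus B6 2106 and 943 (3172 and 4514). There the Trim21 1418077_at difference of NOD minus B6 KO mice turned from -0.28 to 0.056. Leaving out 1 mouse at a time gave 7603 to 9748 calls averaged (5 to 8 Trim), 2387 to 5307 in B6 (2 to 4), 2288 to 3413 in BALB (0 to 3), 1180 to 2034 in NOD (2 to 4), 1673 to 3198, 1973 to 3664 and 1792 to 2949 for BALB minus B6, NOD minus B6 and NOD minus BALB in WT mice, and 2044 to 9092, 2153 to 7685 and 2296 to 4229 in KO mice. With an offset of 16 the largest strain differences shrank but kept their sign, for Trim12c to -4.28 (NOD minus B6). Trim12a and Trim12c lie near the floor of the arrays in the strains where they are low, which limits those folds.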

Other observations

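Probe sets that name a cluster gene or close paralog together with another gene were left out of the counts above, and the values of all 4 are given here. Of those naming both Trim34a and Trim34b, 1421550_a_at read 7.90 to 9.41 in B6 WT, 7.63 to 7.98 in NOD WT and 6.76 to 7.4 in BALB WT mice. The order of the group means was that of Trim34a 1424857_a_at. The other, 1426092_a_at, was dim and ran the other way, with means of 3.90 in BALB, 3.54 in B6 and 3.38 in NOD WT mice, as did the dim Trim34a 1426093_at for BALB. Their averaged KO minus WT differences were 0.22 (SE 0.17, limma adjusted p = 0.363) and 0.11 (SE 0.07, adjusted p = 0.289). The probe set naming both Trim30a and Trim30d, 1456494_a_at, read 7.26 to 9.07 in B6 WT, 6.52 to 7.12 in NOD WT and 5.83 to 6.29 in BALB WT mice, without overlap between strains, and its averaged difference was -0.18 (SE 0.21, limma adjusted p = 0.571). Its order of WT means was that of Trim30d 1435665_at and of Trim30a 1417961_a_at. The last, 1444179_at, names Gm38525 and Trim30b and read 4.56 to 5.77 over all mice, with an averaged difference of -0.13 (SE 0.08, adjusted p = 0.267).

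Among the 20 neighbours of the cluster, the embryonic globin gene Hbb-y had an averaged KO minus WT difference of -6.52 on the log2 scale (limma adjusted p = 1.86e-13). Among WT mice it was 0.84 higher in NOD than in BALB without passing. The other averaged calls among the neighbours were Hbb-bh1 (-0.97, adjusted p = 0.000193), Usp17la (-0.85, 0.00161), Cckbr (-0.68, 0.000172), Smpd1 (-0.30, 0.00431) and, higher, Olfr690 (0.33, 0.0330).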
